A study of Ovis aries with 62 samples.

Results

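The genes described here are 3 cytosolic reductases of the sheep rumen wall: *CBR1* (ENSOARG00000013700), *AKR1C4* (ENSOARG00000009762) and a prostaglandin F synthase 1-like gene (ENSOARG00000010221, PGFS1-like below, also annotated as LOC101107119). They were taken by gene ID and are 3 of the 16011 genes measured. The study had named all 3 among the metabolic genes it tied to both CH4 production and CH4 yield, with these sheep among its data, so their relation with either CH4 trait is given below as a description, with no test. The samples were full-thickness pieces of the ventral rumen wall of 62 adult Merino ewes, 1 RNA sequencing library per ewe, tested in blocks 1 to 4 of 16, 16, 14 and 16 animals. A block is a test period, and all blocks had the same lucerne and oat chaff diet at the same feeding level, with no treatment and no genotype. The labels gave live weight, dry matter intake (DMI) and CH4 production, the last of which was measured in respiratory chambers. The ewes descend from a few Merino sires that the labels do not name, so some are related and no test below accounts for it.

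The rumen is the fermentation chamber of the ruminant stomach. Its wall carries a stratified squamous epithelium that takes up the short chain fatty acids made by microbes, and layers of smooth muscle that mix the feed. Carbonyl reductases of the short-chain dehydrogenase family, such as CBR1, and aldo-keto reductases, such as AKR1C4 and prostaglandin F synthase, use NADPH to turn carbonyl groups into alcohols. Their substrates include prostaglandins, steroids, quinones and reactive aldehydes. In humans CBR1 reduces quinones and E-series prostaglandins, and AKR1C4 is a hydroxysteroid dehydrogenase known from liver. In cattle, prostaglandin F synthase makes F-series prostaglandins from their precursors. Ruminants carry several close copies of the aldo-keto reductase genes, so the substrates of the sheep proteins may differ from those of their human namesakes.

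All 3 genes were well measured in every library. The deposited values are log2 CPM, the log2 of read counts scaled to library size, and the reads behind them could be recovered as whole numbers. The libraries held 4208032 to 12130080 assigned reads, with a median of 7923973. The lowest read number of a member in any library was 173 reads for *CBR1*, 549 for *AKR1C4* and 1292 for PGFS1-like. Levels were not compared between the genes, because no gene lengths were used. Reads that map to more than 1 copy of a gene were not counted by the authors, and how many reads of the 2 aldo-keto reductases were lost in this way was not tested. Markers of both layers of the labelled tissue were present. Smooth muscle markers with a symbol (16 of 18 listed) averaged 8.39 to 11.1 log2 CPM per library, and epithelial markers (7 of 10 listed) averaged 8.03 to 10.1 log2 CPM.

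Over the 62 sheep, *CBR1*, the carbonyl reductase, spanned 4.38 to 6.60 log2 CPM with a median of 5.55, which is a 4.64-fold range. *AKR1C4* spanned 6.14 to 8.23 log2 CPM with a median of 7.27, a 4.23-fold range. PGFS1-like spanned 7.35 to 9.33 log2 CPM with a median of 8.43, a 3.93-fold range. The extremes were often the same animals. Sheep oz97 of block 4 had the highest value of all 62 sheep for each of the 3 genes, and oz238 of block 3 had the lowest for *AKR1C4* and PGFS1-like. The lowest *CBR1* value belonged to oz183, also of block 3. Within block 1, oz73 was the highest and oz152 the lowest for all 3 genes, and within block 3, oz141 was the highest for all 3.

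The levels differed between the test blocks, with block 3 at the low end and block 4 at the high end. *CBR1* had a lowest, median and highest value of 4.80, 5.44 and 5.96 log2 CPM in block 1 and of 4.91, 5.73 and 6.14 log2 CPM in block 2. The values were 4.38, 4.995 and 6.05 log2 CPM in block 3, and 4.91, 5.69 and 6.60 log2 CPM in block 4. All blocks overlapped, but 6 of the 14 sheep of block 3 lay below every sheep of block 2, and the same number lay below every sheep of block 4. The block means of *CBR1* were 5.45 ± 0.32, 5.68 ± 0.33, 5.04 ± 0.51 and 5.74 ± 0.51 log2 CPM in blocks 1 to 4 (SD, *n* = 16, 16, 14 and 16).

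**Figure D1:**
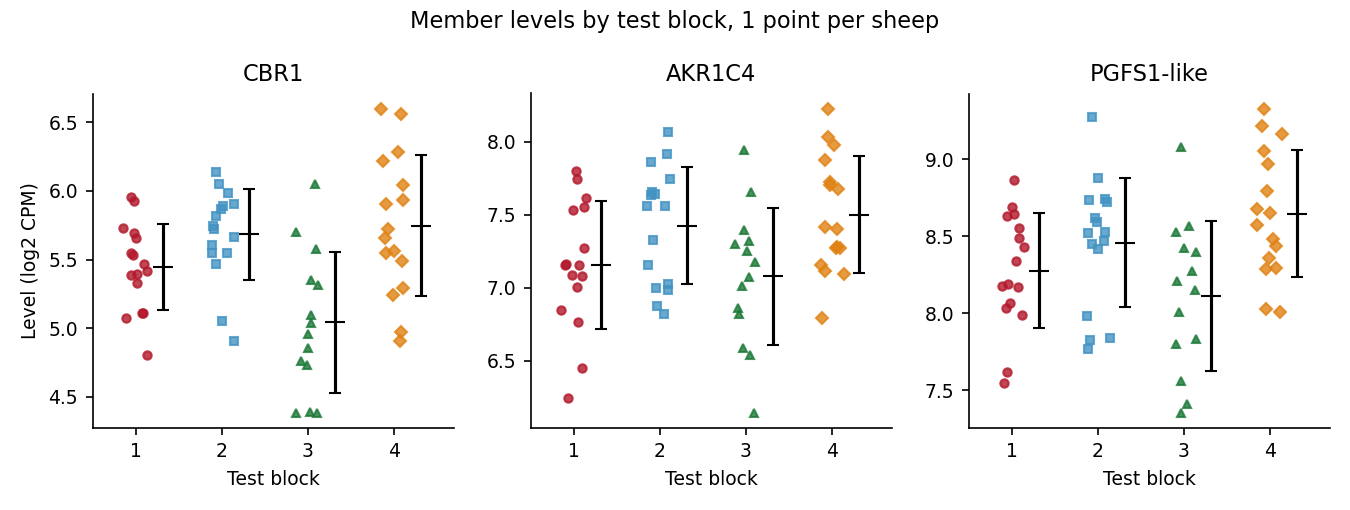
Levels of *CBR1*, *AKR1C4* and PGFS1-like (log2 CPM, vertical axis) in each sheep by test block (horizontal axis), with the mean and SD of each block in black to the right of its points. Block 3 has the lowest mean for each gene (5.04, 7.08 and 8.11 log2 CPM) and block 4 the highest (5.74, 7.50 and 8.64 log2 CPM), and all blocks overlap.

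*AKR1C4* followed the same order of block means. Its lowest, median and highest values were 6.25, 7.15 and 7.80 log2 CPM in block 1, and 6.82, 7.56 and 8.06 log2 CPM in block 2. In block 3 they were 6.14, 7.13 and 7.94 log2 CPM, and in block 4 they were 6.79, 7.41 and 8.23 log2 CPM. The medians of blocks 1 and 3 thus lay close together, below those of blocks 2 and 4. For PGFS1-like the values were 7.54, 8.26 and 8.86 log2 CPM in block 1, and 7.76, 8.52 and 9.27 log2 CPM in block 2. They were 7.35, 8.18 and 9.08 log2 CPM in block 3, and 8.01, 8.61 and 9.33 log2 CPM in block 4. Of the 14 sheep of block 3, 5 lay below every sheep of block 4 for this gene.

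An F test over the 4 blocks (limma) called 2 of the 3 members, that is gave them a *p* under 0.05 after adjustment over all genes, beside 26.5% of all genes tested. *CBR1* passed with F = 8.76 and adjusted *p* = 0.000792, and PGFS1-like with F = 4.76 and adjusted *p* = 0.0228. *AKR1C4* had F = 3.77 and adjusted *p* = 0.0544, just over the threshold of 0.05. It passed without 17 of the 62 sheep, each left out alone, with the lowest adjusted *p* of 0.0217 without oz141, the highest sheep of block 3. The highest adjusted *p* was 0.0919, without oz238. It also passed when the test was limited to genes that reached 3 CPM in each library (adjusted *p* = 0.0439). It did not pass with quantile normalization, an offset of 2 reads or voom weights (adjusted *p* = 0.0581, 0.0538 and 0.0621). With live weight as a covariate it did not pass either (F = 2.90, adjusted *p* = 0.118). In that fit *CBR1* and PGFS1-like were called (adjusted *p* = 0.00467 and 0.0480), beside 26.4% of all genes. *CBR1* and PGFS1-like kept their call without each of the 62 sheep. Block accounted for 29.8% of the variance of *CBR1*, 15.4% of that of *AKR1C4* and 18.7% of that of PGFS1-like.

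The block pairs were compared after the block levels had been seen, and all 6 pairs were run. *CBR1* was lower in block 3 than in block 1 by a log2 difference of -0.40 (SE 0.15, adjusted *p* = 0.0413), and was the only member called in that pair, where 24.5% of all genes were called. PGFS1-like was higher in block 4 than in block 1 by a log2 difference of 0.37 (SE 0.14, adjusted *p* = 0.0447) and was the only member called there, beside 30.7% of all genes. With the muscle mean as a covariate this difference was -0.04 (SE 0.12, adjusted *p* = 0.882), so the call was lost and the sign turned. No member was called between blocks 2 and 1, where 22.4% of genes were.

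The widest gaps lay among the later blocks, where almost no gene passes. *CBR1* differed by 0.70 between blocks 4 and 3 on the log2 scale (SE 0.15, 95% confidence interval 0.40 to 1.01, adjusted *p* = 0.0683). Its difference between blocks 3 and 2 was -0.64 (SE 0.15, interval -0.94 to -0.34, adjusted *p* = 0.399). No member was called in either pair. Limma called 0.0125% of genes (2 genes) between blocks 4 and 3, 0% between blocks 3 and 2 and 0% between blocks 4 and 2. *CBR1* had an unadjusted *p* of 1.69e-05 between blocks 4 and 3 and of 7.36e-05 between blocks 3 and 2.

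Block 1 had more muscle RNA than the later blocks. All 16 smooth muscle markers were called higher there and 5 of 7 epithelial markers lower (limma), beside 17.2% and 19.3% of all genes. The muscle mean, the average log2 CPM of the muscle genes that the study drew from networks of these same libraries, was 6.24 ± 0.33 log2 CPM in block 1 and 5.84 ± 0.37, 5.84 ± 0.34 and 5.77 ± 0.29 log2 CPM in blocks 2 to 4 (SD). The mean of the smooth muscle markers reached at most 11.1 log2 CPM in the sheep of block 1 and spanned 8.39 to 10.8 in those of blocks 2 to 4. The mean of the epithelial markers spanned 8.03 to 10.01 log2 CPM in block 1 and 9.26 to 10.06 in blocks 2 to 4, and the part of the epithelial share in the results below was not tested. In such bulk samples, fewer epithelial cells and less RNA per epithelial cell cannot be told apart. Set against blocks 2 to 4 together, block 1 differed by -0.06 for *CBR1* (SE 0.14, adjusted *p* = 0.755) and by -0.19 for *AKR1C4* (SE 0.13, adjusted *p* = 0.232). The difference was -0.14 for PGFS1-like (SE 0.13, adjusted *p* = 0.401), all on the log2 scale. None of the 3 was called, where 36.5% of all genes were. With the muscle mean as a covariate, the differences turned to 0.20, 0.17 and 0.24, none of which passed (adjusted *p* = 0.381, 0.315 and 0.148). Single sheep moved the values without the covariate: for *CBR1* the difference was -0.10 without oz73 and -0.02 without oz152, and for PGFS1-like it was -0.18 and -0.09 without the same sheep.

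With the muscle mean held constant, all 3 members passed the F test over the 4 blocks, where 8.92% of all genes did, with adjusted *p* = 0.000682 for *CBR1*, 0.0417 for *AKR1C4* and 0.00445 for PGFS1-like. In the same kind of fit, all 3 were lower in block 3 than in block 1, where 12.3% of all genes were called. The log2 differences were -0.64 for *CBR1* (SE 0.15), -0.41 for *AKR1C4* (SE 0.12) and -0.51 for PGFS1-like (SE 0.12). Between blocks 4 and 3, *CBR1* was higher in block 4 by 0.66 on the log2 scale (SE 0.13, adjusted *p* = 0.0363) and was 1 of only 6 genes called (0.0375%). No member was called in the other 4 pairs, where 9.79% of all genes were called between blocks 4 and 1, 5.53% between blocks 2 and 1 and 0% between block 2 and either block 3 or block 4. These block fits with the muscle mean were added after the data had been seen.

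The members fell with the muscle content of the sample. Per unit of the muscle mean, *AKR1C4* fell by 0.76 on the log2 scale (SE 0.12, limma adjusted *p* = 7.63e-08), PGFS1-like fell by 0.76 (SE 0.12, adjusted *p* = 1.21e-07) and *CBR1* fell by 0.51 (SE 0.15, adjusted *p* = 0.00325). All 3 were called lower with more muscle, beside 29.0% of all genes called lower and 25.9% called higher. All 16 smooth muscle markers and all 12 fibroblast and matrix markers rose with the muscle mean, and 6 of 7 epithelial markers fell. The muscle genes come from networks of these libraries and the markers were not removed from them, so these rises are not independent support. No endothelial, immune or hepatocyte marker had a symbol in the table. The mean of the 16 textbook contractile genes, in place of the study's list, kept the call for both aldo-keto reductases but not for *CBR1* (adjusted *p* = 0.0852).

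**Figure D2:**
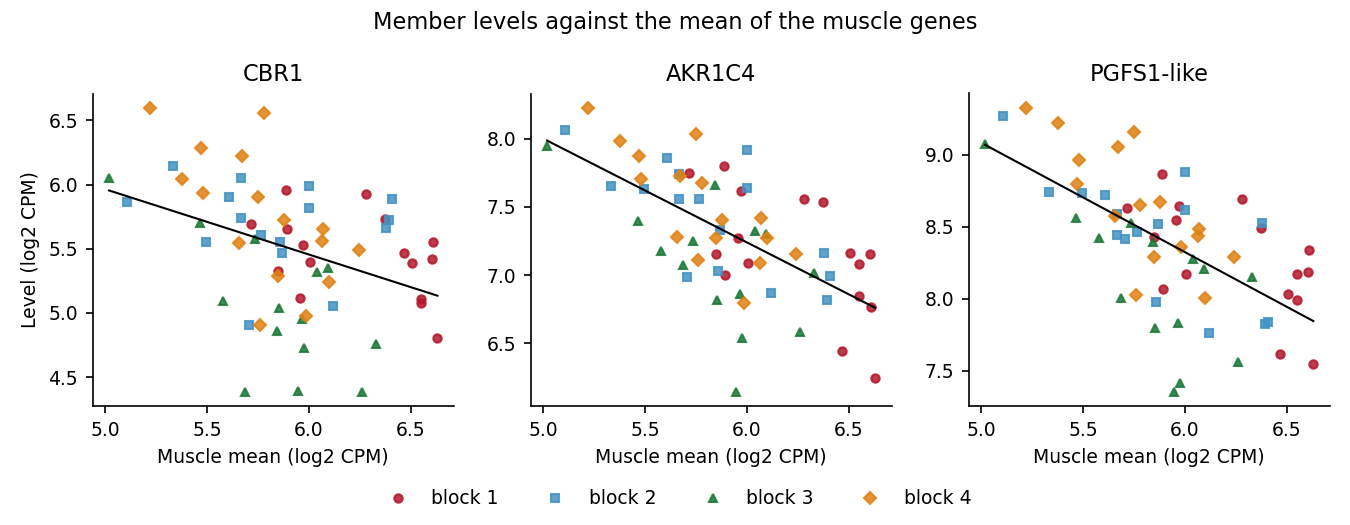
Levels of the 3 genes (log2 CPM, vertical axis) against the muscle mean of the same library (log2 CPM, horizontal axis), 1 point per sheep coloured by test block, with a least squares line over all 62 sheep. The points fall along the line more tightly for *AKR1C4* (*r* = -0.633) and PGFS1-like (*r* = -0.626) than for *CBR1* (*r* = -0.386).

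The 20 sheep with the most muscle RNA had *AKR1C4* levels of 6.25 to 7.56 log2 CPM with a median of 7.09, against 6.99 to 8.23 with a median of 7.71 in the 20 with the least. PGFS1-like had 7.54 to 8.69 log2 CPM with a median of 8.16 in the high-muscle sheep and 8.01 to 9.33 with a median of 8.73 in the low-muscle sheep. *CBR1* had 4.38 to 5.93 log2 CPM with a median of 5.44 in the high-muscle sheep and 4.39 to 6.60 with a median of 5.88 in the low-muscle sheep. The overlap was thus widest for *CBR1*.

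Over the 62 sheep *r* with the muscle mean was -0.633 for *AKR1C4* (rho = -0.623), -0.626 for PGFS1-like (rho = -0.624) and -0.386 for *CBR1* (rho = -0.401). For both aldo-keto reductases the permutation *p* of *r* and of rho was 1e-05, the smallest that 100000 permutations can give. For *CBR1* it was 0.00174 for *r* and 0.00133 for rho. These were 3 of 9 relations computed for the members, with muscle, live weight and DMI. Without the 2 sheep farthest from the median muscle mean, *r* was -0.590 for *AKR1C4*, -0.573 for PGFS1-like and -0.350 for *CBR1*.

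The relation had the same sign within every block. For *AKR1C4*, *r* was -0.612, -0.695, -0.587 and -0.770 in blocks 1 to 4. For PGFS1-like it was -0.601, -0.718, -0.675 and -0.763, and for *CBR1* it was -0.414, -0.170, -0.643 and -0.627. The muscle mean accounted for 40.1% of the variance of *AKR1C4*, 39.2% of that of PGFS1-like and 14.9% of that of *CBR1*. Block and muscle mean together accounted for 52.0%, 56.8% and 44.7% in the same order. Assigned reads per library had *r* of -0.073, -0.063 and -0.134 with the 3 genes, again in that order.

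The 2 aldo-keto reductases moved together across the sheep, and more closely with each other than with any other gene. As a description, since the study linked these genes in its networks of the same libraries, *AKR1C4* and PGFS1-like had *r* = 0.918 and rho = 0.906 over 62 sheep. Each was the gene with the highest *r* to the other among 16010 genes. Within blocks 1 to 4 the *r* of this pair was 0.921, 0.901, 0.945 and 0.872. After block and muscle mean were fitted out of both, it was 0.834, still the highest for each. The genes belong to the same family, and whether reads of one were counted for the other was not tested.

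*CBR1* followed both less closely. Its *r* was 0.754 with *AKR1C4* and 0.746 with PGFS1-like over all sheep, and 0.628 and 0.585 for residuals on block and muscle mean. Within blocks the lowest was 0.414, with PGFS1-like in block 2, and the highest was 0.854, with *AKR1C4* in block 4. *AKR1C4* was the 6th and PGFS1-like the 9th gene by *r* with *CBR1*.

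**Figure D3:**
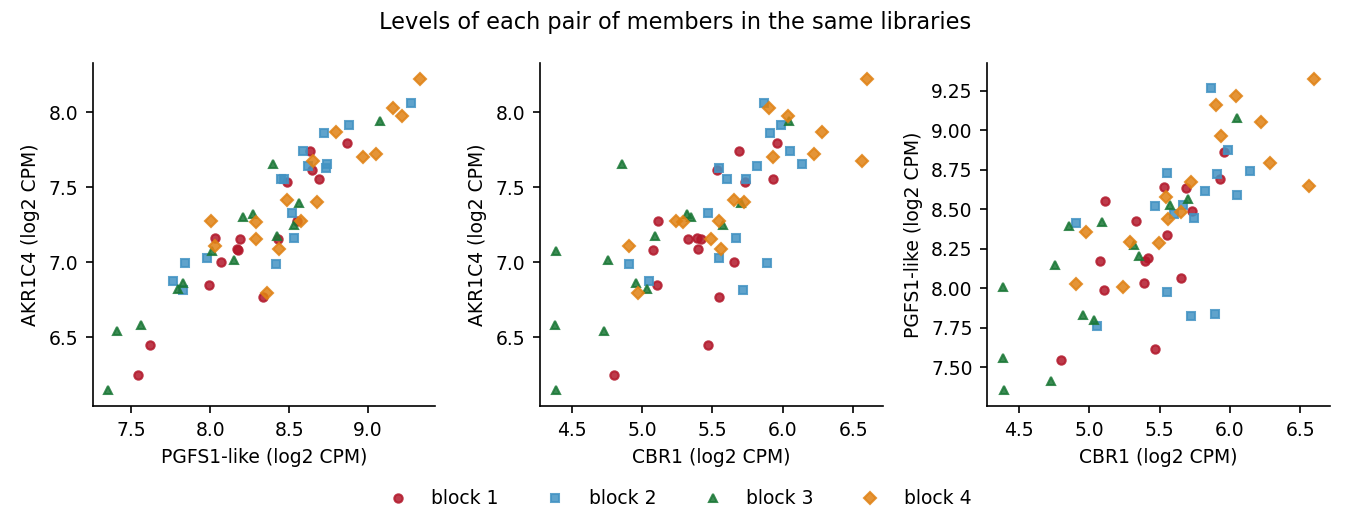
Levels of each pair of genes in the same libraries (log2 CPM on both axes), 1 point per sheep coloured by test block. *AKR1C4* and PGFS1-like lie along a narrow band (*r* = 0.918, 62 sheep), and the pairs with *CBR1* are wider (*r* = 0.754 and 0.746), with many sheep of block 3 at low *CBR1*.

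The difference of 2 members within a library shows whether they changed unequally. *AKR1C4* minus PGFS1-like spanned -1.57 to -0.73 on the log2 scale over the 62 sheep, with an SD of 0.18 that is smaller than the SD of each gene (0.45 and 0.46). This difference did not pass a permutation F test over the 4 blocks (F = 1.59, *p* = 0.201, adjusted over the 3 pairs 0.201). It had *r* = -0.002 with the muscle mean (permutation *p* = 0.987).

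*AKR1C4* minus *CBR1* averaged 2.04 ± 0.35 in block 3, against 1.71 ± 0.32, 1.74 ± 0.33 and 1.75 ± 0.27 in blocks 1, 2 and 4 (SD, log2 scale). The permutation F test over the blocks gave F = 3.31 with *p* = 0.0256, and 0.0768 when adjusted over the 3 pairs, so unequal change between the blocks was not called. PGFS1-like minus *CBR1* gave F = 2.20, *p* = 0.0970 and adjusted *p* = 0.145. Leaving out single sheep gave adjusted *p* of 0.0468 (without oz155) to 0.262 (without oz187) for *AKR1C4* minus *CBR1*, and it passed without 3 of the 62 sheep.

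The aldo-keto reductases fell more with muscle than *CBR1* did. After adjustment this passed by Pearson's *r*, while rho had the same sign and did not pass. *AKR1C4* minus *CBR1* had *r* = -0.283 with the muscle mean (permutation *p* = 0.0256, adjusted over the 3 pairs 0.0462) and rho = -0.235 (*p* = 0.0656, adjusted 0.0984). PGFS1-like minus *CBR1* had *r* = -0.276 (*p* = 0.0308, adjusted 0.0462) and rho = -0.279 (*p* = 0.0283, adjusted 0.0849). Without the 2 sheep farthest from the median muscle mean, *r* was -0.255 and -0.230. Within blocks *r* was -0.426, -0.677, 0.156 and 0.053 for the pair with *AKR1C4*, so the relation did not hold in blocks 3 and 4. It was -0.320, -0.588, 0.003 and 0.026 for the pair with PGFS1-like.

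Median levels of all 3 genes were higher in the heavier sheep, by most for *CBR1*. The 20 heaviest sheep (66.0 to 87.5 kg) had 4.76 to 6.60 log2 CPM of *CBR1* with a median of 5.74, against 4.38 to 6.22 log2 CPM with a median of 5.11 in the 20 lightest (47.0 to 59.5 kg). For *AKR1C4* the range was 6.77 to 8.23 log2 CPM with a median of 7.55 in the heaviest, against 6.14 to 7.94 with a median of 7.17 in the lightest. For PGFS1-like it was 7.83 to 9.33 log2 CPM with a median of 8.55 in the heaviest, against 7.35 to 9.08 with a median of 8.42 in the lightest. Sheep oz73, oz107, oz134, oz152, oz166 and oz97 tied at 66.0 kg, and of these oz97 alone was counted, by row order. It gave the highest value of each gene in the heaviest group. Sheep oz152, left out, had 4.80, 6.25 and 7.54 log2 CPM of *CBR1*, *AKR1C4* and PGFS1-like. Other ways to break the tie were not tested.

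Live weight had *r* = 0.488 with CH4 production and 0.392 with DMI, so it too is not independent of how the study chose these genes. It also varied by block, with means from 60.2 kg in block 3 to 66.1 kg in block 4. Adjusted over all genes, none of the members passed. The *CBR1* slope was 0.26 on the log2 scale per 10 kg (SE 0.067, 95% confidence interval 0.13 to 0.40, unadjusted *p* = 0.000234, adjusted *p* = 0.110), the 34th lowest *p* of 16011 genes. Limma called 3 genes (0.0187%), while 1318 genes had an unadjusted *p* under 0.05. The slopes were 0.13 for *AKR1C4* (SE 0.066, adjusted *p* = 0.616) and 0.11 for PGFS1-like (SE 0.067, adjusted *p* = 0.723).

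**Figure D4:**
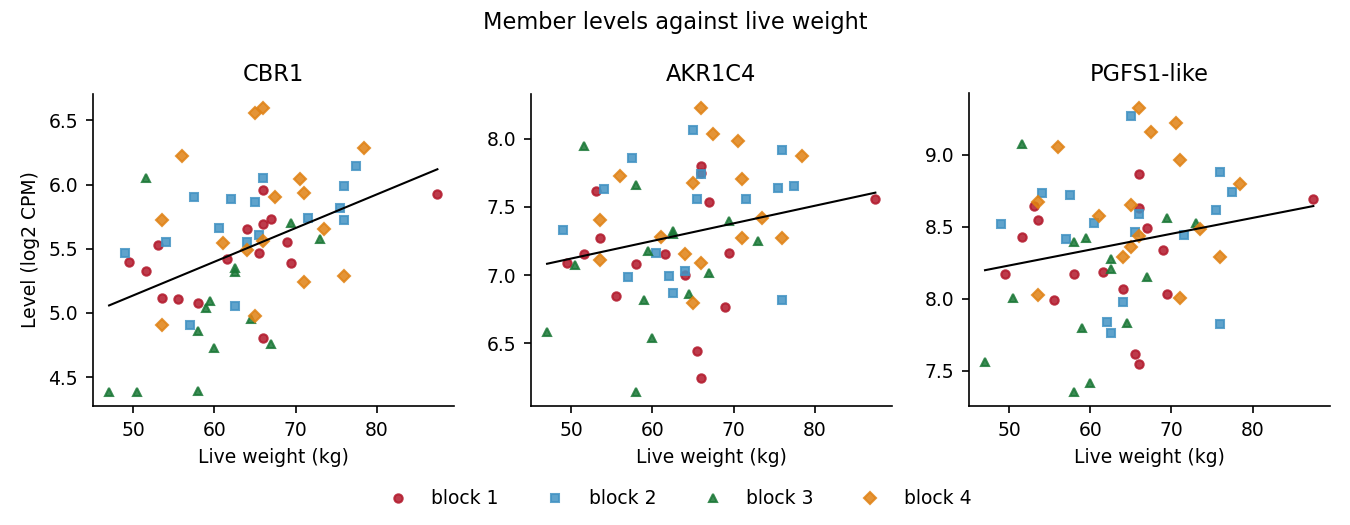
Levels of the 3 genes (log2 CPM, vertical axis) against live weight (kg, horizontal axis), 1 point per sheep coloured by test block, with a least squares line over all 62 sheep. The line is steepest for *CBR1* (0.26 on the log2 scale per 10 kg, against 0.13 and 0.11), and points scatter widely around each line.

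With the muscle mean as a covariate the *CBR1* slope was 0.27 per 10 kg (SE 0.060) and passed (adjusted *p* = 0.0231), as did 0.487% of all genes. Neither aldo-keto reductase was called there (adjusted *p* = 0.213 for *AKR1C4* and 0.334 for PGFS1-like). With test block as a term the *CBR1* slope was 0.19 (SE 0.062, adjusted *p* = 0.231), and with both block and muscle mean it was 0.21 (SE 0.053, adjusted *p* = 0.0518). The block term took the slope to 0.08 for *AKR1C4* (SE 0.066, adjusted *p* = 0.780) and 0.05 for PGFS1-like (SE 0.066, adjusted *p* = 0.871). Without covariates, the *CBR1* slope was called in none of the 62 fits that left out 1 sheep (adjusted *p* = 0.0733 to 0.256).

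For *CBR1* and live weight, *r* was 0.439 (permutation *p* = 0.00037) and rho 0.453 (*p* = 0.0002) over 62 sheep, and *r* was 0.382 with the 2 sheep of most extreme weight left out. Within blocks 1 to 4 it was 0.510, 0.522, 0.418 and 0.155. For *AKR1C4*, *r* was 0.236 (*p* = 0.0630, rho = 0.261, *p* = 0.0421) and for PGFS1-like 0.200 (*p* = 0.120, rho = 0.226, *p* = 0.0766). Without the 2 extreme sheep these were 0.181 and 0.127. Within blocks *r* with live weight lay between 0.098 and 0.241 for *AKR1C4* and between 0.020 and 0.226 for PGFS1-like. The slopes on live weight were not shown to differ between blocks. Limma's interaction test called 0% of genes, with 464 at an unadjusted *p* under 0.05, and the members had adjusted *p* = 1.00. Live weight had *r* = 0.037 with the muscle mean.

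None of the members was called for DMI, which was tested in 61 sheep without oz151, whose labelled DMI of 0.0795 kg/d is far below the next lowest of 0.376 kg/d. DMI had *r* = 0.860 with CH4 production, so it is not independent of how the study chose these genes. *CBR1* ranged from 4.76 to 6.56 log2 CPM (median 5.71) in the 20 sheep with the highest DMI, and from 4.38 to 6.60 log2 CPM (median 5.44) in the 20 with the lowest. The *CBR1* slope was 0.41 on the log2 scale per kg/d (SE 0.21, adjusted *p* = 0.437). It was 0.19 for *AKR1C4* (SE 0.20, adjusted *p* = 0.744) and 0.22 for PGFS1-like (SE 0.20, adjusted *p* = 0.708). Without oz238 and without oz97 the slope was 0.11 and 0.31 for *AKR1C4*, and 0.14 and 0.34 for PGFS1-like, with no call. Limma called 0% of genes, although 1899 had an unadjusted *p* under 0.05.

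For *CBR1* and DMI, *r* was 0.239 (permutation *p* = 0.0627), rho was 0.306 (*p* = 0.0171), and *r* was 0.358 with the 2 sheep of most extreme DMI left out. Within blocks *r* was 0.284, 0.364, 0.285 (*n* = 13) and 0.306. For *AKR1C4*, *r* was 0.123 (*p* = 0.348, rho = 0.143, *p* = 0.274) and for PGFS1-like 0.136 (*p* = 0.296, rho = 0.209, *p* = 0.104). Without the 2 extreme sheep they were 0.199 and 0.220. The slopes on DMI were not shown to differ between blocks either, since limma's interaction test called 0% of genes (963 at an unadjusted *p* under 0.05).

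All 3 genes had a positive relation with CH4 production, which together with CH4 yield is what they were chosen for. *CBR1* had *r* = 0.353 and rho = 0.385 with CH4 production over 62 sheep, and 110 of 16011 genes had a higher *r*. *AKR1C4* had *r* = 0.245 and rho = 0.255 (770 genes higher), and PGFS1-like *r* = 0.242 and rho = 0.281 (799 genes higher). The slopes per 10 g/d were 0.37, 0.23 and 0.23 on the log2 scale for *CBR1*, *AKR1C4* and PGFS1-like (SE 0.12 for each). With DMI as a covariate and without oz151 they were 0.60, 0.51 and 0.47, with wider SEs of 0.24, 0.23 and 0.23.

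The size of the CH4 relation varied from block to block and was largest in block 3 for each gene's slope. For PGFS1-like, *r* with CH4 production was 0.072, 0.222, 0.647 and 0.272 in blocks 1 to 4. For *AKR1C4* it was 0.116, 0.322, 0.518 and 0.246, and for *CBR1* 0.269, 0.516, 0.509 and 0.339. The slope of PGFS1-like was 0.86 per 10 g/d in block 3, against 0.06, 0.19 and 0.20 in blocks 1, 2 and 4. Whether these slopes differ was not tested. Sheep oz151 and oz224, both of block 3, have the same labelled CH4 production. Both were kept in the CH4 production values over all sheep and in block 3, and how far this moves them was not tested.

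**Figure D5:**
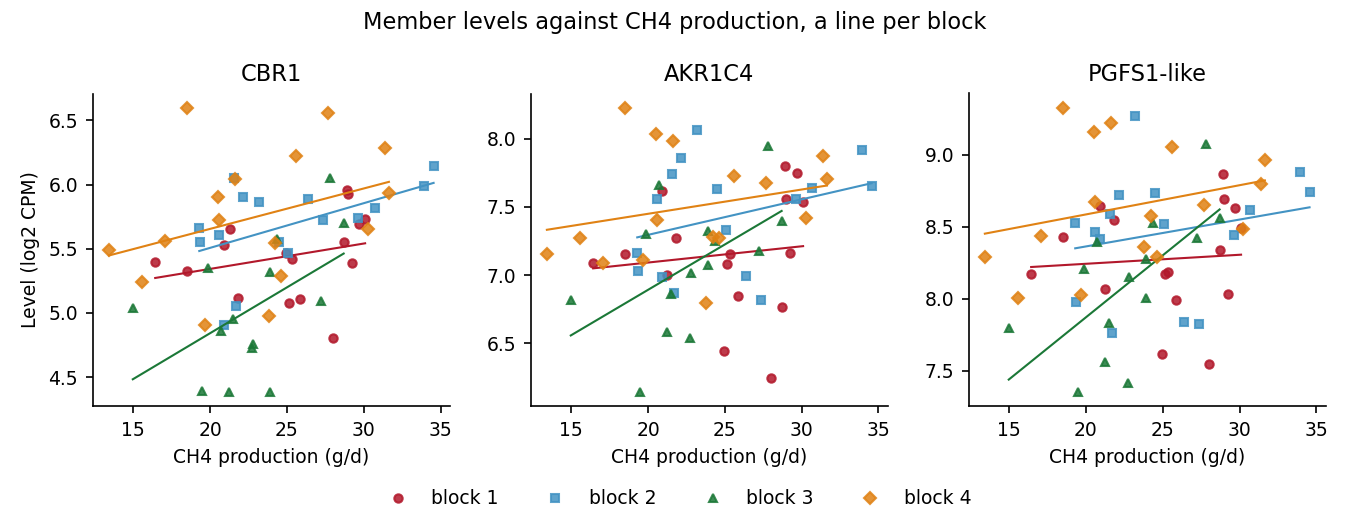
Levels of the 3 genes (log2 CPM, vertical axis) against CH4 production (g/d, horizontal axis), 1 point per sheep, with a least squares line for each test block in the colour of its points. The line of block 3 is the steepest for each gene (0.71, 0.66 and 0.86 on the log2 scale per 10 g/d), and the line of block 1 the flattest (0.20, 0.12 and 0.06).

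The values with CH4 yield, computed here as labelled CH4 production over labelled DMI, were smaller. This yield averaged 19.0, 19.8, 20.8 and 22.6 g/kg in blocks 1 to 4. The study gives lower block means, so its yield may not be the same measure, and the reason was not tested. The values here are therefore not a check of the relation that the study found. Over 61 sheep *r* was 0.088 for *CBR1*, 0.101 for *AKR1C4* and 0.077 for PGFS1-like, and 31.6%, 28.4% and 34.1% of all genes had a higher *r*. Within blocks, the sign varied for each gene. With oz151 kept in, whose labels give the same CH4 production as those of oz224, *r* was -0.037, 0.017 and -0.023.

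Other enzymes of carbonyl and quinone reduction shared the fall with muscle. Of 10 such genes with a symbol, 9 fell and 1 rose with the muscle mean (limma), beside 29.0% and 25.9% of all genes. AKR1D1, a steroid reductase of bile acid synthesis, fell by 0.98 on the log2 scale per unit of the muscle mean (SE 0.12), and DHRS7, a short-chain dehydrogenase, fell by 0.89 (SE 0.15). CYB5R3, a cytochrome b5 reductase, rose by 0.89 (SE 0.075). In block 1 against blocks 2 to 4, 7 of the 10 fell and 1 rose, where 19.3% of all genes fell and 17.2% rose. AKR1D1 and DHRS7 both had a difference of -0.56 (SE 0.13 and 0.15) and CYB5R3 of 0.41 (SE 0.10). The 3 members were not among the genes called in that comparison.

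The enzymes listed under conjugation, most of which attach glutathione, sulfate or glucuronate to such substrates, behaved likewise. All 9 with a symbol fell with the muscle mean, led by the sulfotransferases SULT2B1 (-0.92, SE 0.22) and SULT1C2 (-0.90, SE 0.17), and 7 of 9 were lower in block 1, beside 29.0% of all genes that fell with muscle and 19.3% that were lower in block 1. SULT2B1 differed by -0.71 (SE 0.19) and MGST2, a glutathione transferase of membranes, by -0.65 (SE 0.10) between block 1 and blocks 2 to 4. The 7 enzymes of ketone body synthesis also all fell with muscle. BDH1, which makes beta-hydroxybutyrate, fell by 0.78 (SE 0.098). Of these 7, 5 were lower in block 1, with BDH1 at -0.34 (SE 0.11) and ACADS, a short-chain acyl-CoA dehydrogenase, at -0.31 (SE 0.11).

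Of the other 39 genes of the study's lipid and oxo-acid list, 38 fell with muscle and 29 were lower in block 1, against 29.0% and 19.3% of all genes. GGH, a folate hydrolase, led both with -1.29 (SE 0.17) per unit of the muscle mean and -0.88 (SE 0.17) between block 1 and the later blocks. The other 11 metabolic genes that the study tied to CH4 all fell with muscle and 8 were lower in block 1, with an ETFA-like gene at -0.36 (SE 0.082) and an RPL35-like gene at -0.35 (SE 0.064). The study drew these lists from networks of the same libraries, so their shared direction is not independent evidence. The median log2 difference between block 1 and blocks 2 to 4 was -0.29 over the 39 genes and -0.28 over the 11, against -0.06, -0.19 and -0.14 for the 3 members and -0.01 over all genes.

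Of 28 prostaglandin and eicosanoid genes listed, 5 had a symbol in the table, and they did not move one way. HPGD, the dehydrogenase that inactivates prostaglandins, had a lowest, median and highest value of 5.11, 6.12 and 7.37 log2 CPM in block 1, against 6.24, 7.12 and 7.78 log2 CPM in blocks 2 to 4. It was lower in block 1 by a log2 difference of -0.85 (SE 0.13, adjusted *p* = 1.26e-06) and fell by 1.23 per unit of the muscle mean (SE 0.13). PTGIS, the prostacyclin synthase, had 5.77, 6.70 and 7.52 log2 CPM in block 1, against 4.48, 5.97 and 7.23 log2 CPM in blocks 2 to 4. It was higher in block 1 by 0.73 (SE 0.18, adjusted *p* = 0.000958) and rose with muscle by 1.76 (SE 0.086). HPGD thus moved with the members in its relation to muscle, and PTGIS against them.

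PTGFRN, named as a negative regulator of the prostaglandin F receptor, was higher in block 1 by 0.33 (SE 0.087, adjusted *p* = 0.00204) and rose with muscle by 0.80 (SE 0.054). PLA2G4E, a member of the cytosolic phospholipase family, fell by 0.45 per unit of the muscle mean (SE 0.18, adjusted *p* = 0.0271). ALOX15B, a lipoxygenase that acts on arachidonic acid, fell by 0.37 (SE 0.16, adjusted *p* = 0.0421). Neither was called between the blocks (-0.34, adjusted *p* = 0.0796, and -0.24, adjusted *p* = 0.170). None of the 5 was called for live weight or DMI. On live weight, ALOX15B had a slope of -0.26 per 10 kg (SE 0.069, adjusted *p* = 0.122), the opposite sign to that of *CBR1*. As a description, *r* with *CBR1*, *AKR1C4* and PGFS1-like over 62 sheep was -0.453, -0.209 and -0.154 for ALOX15B and -0.384, -0.130 and -0.102 for PLA2G4E. It was 0.305, 0.560 and 0.459 for HPGD, -0.330, -0.571 and -0.584 for PTGIS and -0.231, -0.495 and -0.486 for PTGFRN.

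The genes with a symbol that followed *CBR1* most closely included MAOA (*r* = 0.816), the mitochondrial monoamine oxidase, and CA12, a membrane carbonic anhydrase (*r* = 0.757), followed by the other members. Those closest to *AKR1C4* after PGFS1-like included CMBL, a cytosolic hydrolase (*r* = 0.870). ACSF2, an acyl-CoA synthetase, and SLC16A1, a carrier of lactate and ketone bodies, each had *r* = 0.828 with *AKR1C4*. For PGFS1-like after *AKR1C4* they were ABHD11, a mitochondrial hydrolase (*r* = 0.805), PLEK2 (*r* = 0.796), the thiopurine methyltransferase TPMT (*r* = 0.788) and ATP6V1A, a subunit of the vacuolar proton pump (*r* = 0.780). All are over the same 62 libraries, which share the differences in block and muscle content.

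With block and muscle mean fitted out, MAOA had *r* = 0.744 with *CBR1*, CMBL 0.775 and SLC16A1 0.714 with *AKR1C4*, and ABHD11 0.596 with PGFS1-like. Symbols were at hand for 1224 of the 16011 genes, so nearer genes may have no name here. The number of genes with *r* above 0.8 was 13 for *AKR1C4*, 3 for PGFS1-like and 1 for *CBR1*, and none had *r* under -0.8. The median *r* over the 39 other genes of the lipid and oxo-acid list was 0.704 with *AKR1C4*, 0.630 with PGFS1-like and 0.580 with *CBR1*, against medians from -0.001 to 0.009 over all genes.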

How the data were processed

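Rumen wall RNA of 62 sheep was sequenced as stranded, ribosomal RNA depleted, paired-end libraries. Alignment by the authors used TopHat and Bowtie2 on sheep gene models of Ensembl. Reads with a unique position were counted per gene with HTSeq, and the authors deposited voom log2 CPM values for 16011 genes (an offset of 0.5 reads and a library size with a normalization factor). EdgeR and limma are named as well in the submitters' processing notes.

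Whole reads were recovered by scaling each library (100.0% of values within 0.01 reads), and depth was 4208032 to 12130080 assigned reads. Genes were fitted with limma 3.58.1 in R 4.3.3, with a variance trend, on block, live weight, DMI and the muscle mean, with a Benjamini-Hochberg adjustment over the 16011 genes. The fit of block 1 against blocks 2 to 4 was tested on simulated counts, and the other fits were not. Relations and differences of members within a library used 2-sided permutation tests (100000 permutations) in Python 3.11.15 with numpy 2.4.6, pandas 2.3.3 and scipy 1.17.1, and plots used matplotlib 3.10.9. These *p* measure the spread between sheep. Sheep oz151 was left out of DMI and CH4 yield.

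The members and gene lists were chosen with earlier results of these data known. Symbols came from the study's tables. Named genes are the 3 members, for each the 5 genes with a symbol and the highest *r*, all measured prostaglandin genes, and of each other list the 2 largest rises and 2 largest falls past the threshold. A gene that this rule names is not reported here. Alternatives were quantile normalization, an offset of 2 reads, voom weights, a 3 CPM filter, covariates and leaving out sheep. No sequences or coordinates were used here.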

Additional observations from a re-analysis of the deposited data

How the results depend on the processing

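No paired analysis was possible because the replicate numbers of the blocks only follow the order of the accessions. Of 144 values of 24 results recomputed under another setting, 134 kept their direction and their side of the threshold, or moved by less than 1 SE where there was no test. Among the latter, some slopes on CH4 yield changed sign. Per 10 g/kg, the slope went from 0.14 to -0.008 for *AKR1C4* with the muscle mean as a covariate. For PGFS1-like it went from 0.11 to -0.040 with the muscle mean and to -0.042 with block. With oz151 kept in it was -0.005 for *CBR1* and -0.003 for PGFS1-like. With the muscle mean as a covariate, the difference of block 1 from blocks 2 to 4 changed sign for all 3 genes, to 0.20 for *CBR1*, 0.17 for *AKR1C4* and 0.24 for PGFS1-like, with the call unchanged. The same covariate took the *CBR1* slope on live weight past the threshold (0.27 per 10 kg). For *AKR1C4* over the 4 blocks it gave F = 5.06, and a test limited to genes that reached 3 CPM in each library gave F = 3.75 with fewer genes tested. Both passed, and both were added after seeing the data. So was live weight as a covariate, with which *AKR1C4* did not pass (F = 2.90). Leaving out single sheep gave F from 3.199 to 4.82 for *AKR1C4* over the blocks. The textbook smooth muscle genes took the *CBR1* slope on muscle below the threshold (-0.19 per unit of their mean). With DMI as a covariate and without oz151, the slopes on CH4 production were 0.60 for *CBR1*, 0.51 for *AKR1C4* and 0.47 for PGFS1-like per 10 g/d. Their SEs were 0.24, 0.23 and 0.23, against 0.12 for each without the covariate. The cause was not tested in these cases. Depth limits the members little, since each had at least 173 reads in every library. The number of sheep in a block, 14 to 16, limits the differences between blocks.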
